A study of Mus musculus with 10 samples.

Results

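The genes described here encode 9 proteins of the fibrous and stromal extracellular matrix: the fibrillar collagen chains Col1a1, Col1a2 and Col3a1, the small leucine-rich proteoglycans Dcn, Lum and Bgn, and the adhesive and matricellular glycoproteins Postn, Tnc and Fn1. They were chosen by name, through their Ensembl gene identifiers, by a rule that uses no array value, although earlier results of these data were known when the set was drawn up. All 9 were found among the 27528 genes of the array table.

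The measurements are whole-transcript array signals from the first molar tooth germ of wild-type NMRI mouse embryos, an outbred stock, with no treatment at either stage. Germs were taken at the embryonic days E13.5 (bud stage) and E14.5 (cap stage), with 5 arrays per stage, numbered replicates 1, 2, 4, 5 and 6 at both stages. Each array holds the RNA of 12 to 18 pooled germs, dissected with little surrounding tissue, and the study's methods call the samples biological replicates. A value is therefore an average over epithelium, mesenchyme and whatever tissue stayed attached, and carries no spread between single embryos.

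Fibrillar collagens are secreted as procollagens, assembled into triple helices and laid down as fibrils by mesenchymal cells. Small leucine-rich proteoglycans bind those fibrils and regulate their diameter and spacing, whereas periostin, tenascin-C and fibronectin link the fibrils to each other and to cell surface receptors. In the tooth germ the mesenchyme that condenses around the epithelial bud is the usual source of such proteins, and tenascin is a long-known component of that condensed mesenchyme.

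Promoter sequence is shown for Col1a2, Col3a1, Postn and Tnc, the genes that fell together in the results below, so that their starts can be compared directly. RefSeq promoter windows on the mouse build GRCm38.p6 matched 5 of the 9 genes, namely Col1a2, Col3a1, Bgn, Postn and Tnc. Each line gives the 120 bases just before an annotated start, 5′ to 3′ on the gene's own strand. Capitals mark matches to the motifs searched, each on both strands. The TATA box was searched as TATATAA or on the other strand as TTATATA. The CCAAT box was searched as CCAAT or its complement ATTGG, the GC box as GGGCGG or its complement CCGCCC, and the Smad-binding element as CAGAC or its complement GTCTG. The second of the 2 annotated starts is printed for Postn and Tnc, and that choice was made after the sequences had been seen.
Col1a2 (chr6:4505498-4505617, plus strand): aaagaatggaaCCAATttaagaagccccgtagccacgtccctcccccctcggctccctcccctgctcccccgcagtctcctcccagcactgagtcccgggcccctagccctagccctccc
Col3a1 (chr1:45311418-45311537, plus strand): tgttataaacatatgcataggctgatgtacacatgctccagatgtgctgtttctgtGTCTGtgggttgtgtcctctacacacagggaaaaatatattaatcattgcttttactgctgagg
Postn, second start (chr3:54360987-54361106, plus strand): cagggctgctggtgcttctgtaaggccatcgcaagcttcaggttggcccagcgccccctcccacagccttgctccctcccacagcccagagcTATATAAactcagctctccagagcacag
Tnc, second start (chr4:64046937-64047056, minus strand): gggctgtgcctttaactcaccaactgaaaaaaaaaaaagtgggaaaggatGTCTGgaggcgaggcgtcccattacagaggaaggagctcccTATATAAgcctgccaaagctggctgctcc

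TATATAA, the core of a TATA box, lay 28 to 22 bases before the second Postn start and 29 to 23 bases before the second Tnc start. The 250 bases before the other annotated start of Postn and of Tnc held no match to it. Neither did those before the starts of Col1a2, Col3a1 and Bgn. Over the 250 bases before each start, 3.04% of the 32851 RefSeq windows held that motif on either strand. CCAAT, which lay 109 to 105 bases before the Col1a2 start, was found in 33.8% of the windows. GGGCGG and CAGAC were as widespread, at 32.7% and 42.2%. Such matches describe letters in a window and are not evidence that a factor binds there.

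Between E13.5 and E14.5 the 9 genes moved in both directions. Signal of Col1a1, Dcn and Lum was higher at E14.5, signal of Col1a2, Col3a1, Postn and Tnc was lower, and Bgn and Fn1 did not pass the test (limma, Benjamini-Hochberg adjusted p under 0.05 over all 27528 genes). Thus 7 of the 9 genes (77.8%) were called, against 7.85% of all genes, 4.36% of all genes being called higher and 3.49% lower. The 9 genes all ranked at percentile 90.1 or above on every array, whereas all genes include those of low signal. The shares therefore do not compare genes of like signal, and the 9 were chosen with earlier results known. In 5 of the 9 genes (Col1a1, Col1a2, Col3a1, Postn and Tnc) the values of the stages did not overlap, which held for 8.84% of all genes (4.82% higher and 4.01% lower at E14.5). The median change of the 9 genes was −0.22 on the log2 scale and their median absolute change was 0.41, beside −0.01 and 0.09 over all genes. All changes were moderate, since 176 genes of the table changed by at least 1 on the log2 scale and 0 of the 9 did. With 1 array left out at a time, between 3 and 7 of the genes stayed called, with 4 called without E13.5 replicate 1, 3 without E13.5 replicate 5, 3 without E14.5 replicate 2, 4 without E14.5 replicate 4, 3 without E14.5 replicate 5 and 4 without E14.5 replicate 6. In these bulk samples, fewer cells of a type and less RNA per cell cannot be told apart.

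**Figure D1:**
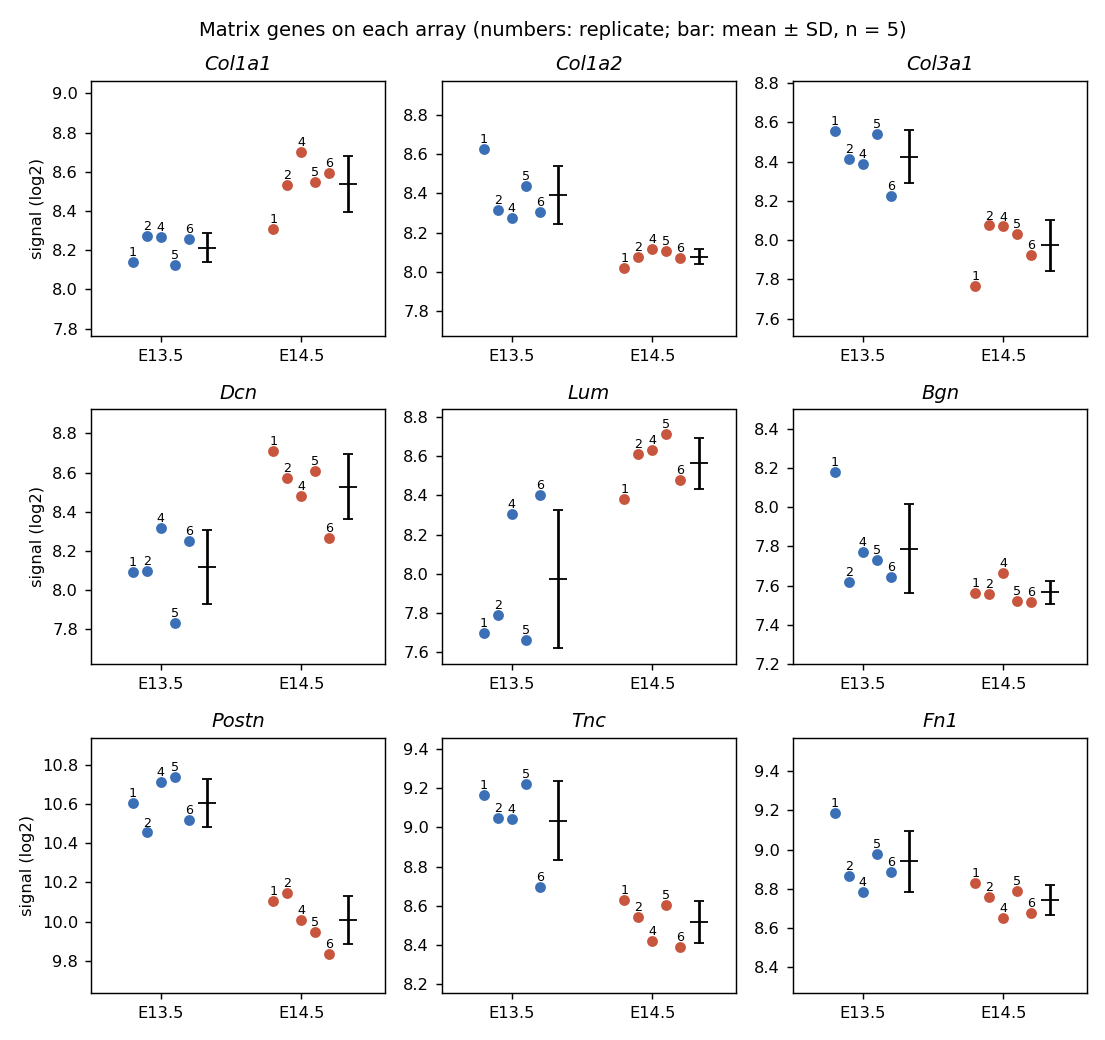
Log2 array signal of each of the 9 matrix genes on the 10 arrays, 1 panel per gene, with E13.5 and E14.5 on the horizontal axis, points for the 5 arrays of a stage and bars for the mean and SD. The values of the stages do not overlap for Col1a1, Col1a2, Col3a1, Postn and Tnc, whereas Bgn and Fn1 overlap and are not called.

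The signals of all 9 genes ranked in the upper part of their arrays at both stages. The lowest percentile of any of them among the genes of an array was 90.1, that of Bgn on an E14.5 array, and Postn was at a mean percentile of 99.8 at E13.5 and 99.7 at E14.5. Array signal depends on the probes, so these ranks are not read as transcript levels or as an order of the genes. On average Lum moved from percentile 93.9 to 97.7, Dcn from 95.2 to 97.6 and Col1a1 from 95.9 to 97.6. Col3a1 went the other way, from percentile 96.9 to 94.5, as did Tnc, from 98.7 to 97.6.

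Among the collagen genes, the signals for the chains of a single fibril type diverged. Col1a1 and Col1a2 encode the partner chains of type I collagen, the main collagen of bone, dentin and loose connective tissue, and Col3a1 encodes the chain of type III collagen, which co-assembles with type I in soft embryonic tissue. All array values below are log2 signals in the order of replicates 1, 2, 4, 5 and 6. Col1a1 (ENSMUSG00000001506) measured 8.14, 8.27, 8.27, 8.12 and 8.26 at E13.5 and 8.31, 8.53, 8.70, 8.55 and 8.59 at E14.5. Every E14.5 array lay above every E13.5 array, although E14.5 replicate 1 was close to the earlier stage. The mean rose from 8.21 ± 0.07 to 8.54 ± 0.14 (SD, n = 5 per stage), that is by 0.32 ± 0.08 (SE) or 1.25-fold (95% interval 1.11 to 1.41; limma adjusted p = 0.0246). The call was lost without E13.5 replicate 1 (change 0.31) or 5 (0.30) and without E14.5 replicate 2 (0.33), 4 (0.28), 5 (0.32) or 6 (0.31), with limma adjusted p between 0.0509 and 0.0757.

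Col1a2 (ENSMUSG00000029661) measured 8.63, 8.32, 8.27, 8.44 and 8.31 at E13.5 and 8.02, 8.08, 8.12, 8.11 and 8.07 at E14.5. The E14.5 arrays were nearly level with each other, and all lay below the E13.5 arrays, of which replicate 1 was the highest. Signal fell from 8.39 ± 0.15 to 8.08 ± 0.04 (SD, n = 5), the difference being −0.31 ± 0.08 (SE) or 1.24-fold lower (95% interval 1.11 to 1.39; limma adjusted p = 0.0238). Without E13.5 replicate 5 (change −0.30) or E14.5 replicate 1 (−0.30), 2 (−0.31), 5 (−0.32) or 6 (−0.31) the gene was no longer called, with limma adjusted p between 0.0532 and 0.0703. Quantile normalization of the arrays also ended the call, with a change of −0.28 (limma adjusted p = 0.0676).

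Col3a1 (ENSMUSG00000026043) measured 8.56, 8.42, 8.39, 8.54 and 8.22 at E13.5 and 7.77, 8.08, 8.07, 8.03 and 7.92 at E14.5. The stages were separate here too, with the lowest bud value in replicate 6 and the lowest cap value in replicate 1. Its mean fell from 8.43 ± 0.13 to 7.97 ± 0.13 (SD, n = 5), the difference being −0.45 ± 0.09 (SE) or 1.37-fold lower (95% interval 1.20 to 1.56; limma adjusted p = 0.00645). Col3a1 was the only one of the 3 collagens that stayed called whichever array was left out and under each other setting tried. Other fibre-forming collagens and collagen-processing enzymes are not analysed here, because no identifier in the sources used paired their symbols with rows of the array table.

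The genes of the small leucine-rich proteoglycans were divided as well. Decorin and lumican, products of neighbouring genes on chromosome 10, bind collagen fibrils and limit their lateral growth, and biglycan is the close homologue of decorin. Dcn (ENSMUSG00000019929) measured 8.09, 8.10, 8.32, 7.83 and 8.25 at E13.5 and 8.71, 8.57, 8.48, 8.61 and 8.27 at E14.5. Most E14.5 arrays were higher, but E14.5 replicate 6 at 8.27 lay below E13.5 replicate 4 at 8.32. On average Dcn rose from 8.12 ± 0.19 to 8.53 ± 0.17 (SD, n = 5), the difference being 0.41 ± 0.11 (SE) or 1.33-fold (95% interval 1.13 to 1.56; limma adjusted p = 0.036). It was not called without E13.5 replicate 1 (change 0.40), 2 (0.40) or 5 (0.34), nor without E14.5 replicate 1 (0.36), 2 (0.40), 4 (0.42) or 5 (0.39), with limma adjusted p between 0.0565 and 0.0933.

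Lum (ENSMUSG00000036446) measured 7.70, 7.79, 8.31, 7.66 and 8.40 at E13.5 and 8.38, 8.61, 8.63, 8.71 and 8.48 at E14.5. The E13.5 arrays were spread widely, with replicates 4 and 6 near the E14.5 level and replicates 1, 2 and 5 well below it. Replicates 4 and 6 were also the highest E13.5 arrays for Dcn. Lum rose from 7.97 ± 0.35 to 8.56 ± 0.13 (SD, n = 5), the difference being 0.59 ± 0.15 (SE) or 1.51-fold (95% interval 1.20 to 1.89; limma adjusted p = 0.0314), with an overlap of E14.5 replicate 1 at 8.38 and E13.5 replicate 6 at 8.40. The call was lost without E13.5 replicate 1 (change 0.52), 2 (0.55) or 5 (0.51) and without E14.5 replicate 2 (0.58), 4 (0.57), 5 (0.55) or 6 (0.61), with limma adjusted p between 0.0618 and 0.0868. The E13.5 SD of 0.35 was the largest within a stage among the 9 genes.

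Bgn (ENSMUSG00000031375) measured 8.18, 7.62, 7.77, 7.73 and 7.64 at E13.5 and 7.56, 7.56, 7.66, 7.52 and 7.52 at E14.5. E13.5 replicate 1 stood apart from the others, and the remaining arrays of both stages lay within a narrow, overlapping range. The means were 7.79 ± 0.23 and 7.57 ± 0.06 (SD, n = 5), and the change of −0.22 (95% interval −0.44 to −0.00) was not called (limma adjusted p = 0.26). Without E13.5 replicate 1 the change was −0.13.

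Of the genes of matricellular proteins, Postn and Tnc both fell in signal. Periostin, which cross-links collagen and is named for its place in periosteum and periodontal ligament, is classed by the study among the genes that affect tooth tissue. Postn (ENSMUSG00000027750) measured 10.61, 10.45, 10.71, 10.74 and 10.52 at E13.5 and 10.11, 10.15, 10.01, 9.95 and 9.84 at E14.5. The lowest bud array was still 0.31 above the highest cap array, the widest gap among the 9 genes. Signal fell from 10.61 ± 0.12 to 10.01 ± 0.12 (SD, n = 5), the difference being −0.60 ± 0.08 (SE) or 1.51-fold lower (95% interval 1.34 to 1.71; limma adjusted p = 0.000745), and the change stayed between −0.63 and −0.55 whichever array was left out.

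Tnc (ENSMUSG00000028364) measured 9.17, 9.05, 9.04, 9.22 and 8.70 at E13.5 and 8.63, 8.54, 8.42, 8.60 and 8.39 at E14.5. Tenascin-C is a large hexameric glycoprotein that modulates cell adhesion to fibronectin, and its gene is classed by the study as dispensable for tooth development, as are Col1a1 and Dcn. Replicate 6 was the lowest array at both stages, and its E13.5 value lay 0.07 above the highest E14.5 array. The mean fell from 9.04 ± 0.20 to 8.52 ± 0.11 (SD, n = 5), the difference being −0.52 ± 0.10 (SE) or 1.43-fold lower (95% interval 1.23 to 1.66; limma adjusted p = 0.0069). Both Postn and Tnc stayed called under every setting tried.

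Fn1 (ENSMUSG00000026193) measured 9.19, 8.86, 8.78, 8.98 and 8.89 at E13.5 and 8.83, 8.76, 8.65, 8.79 and 8.68 at E14.5. Fibronectin is the adhesive glycoprotein on which collagen fibrils are first assembled. Each cap array was below the bud array of the same rank, but the stages overlapped and replicate 1 was the highest at both. The means were 8.94 ± 0.15 and 8.74 ± 0.08 (SD, n = 5), and the change of −0.20 (95% interval −0.38 to −0.02) was not called (limma adjusted p = 0.205).

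**Figure D2:**
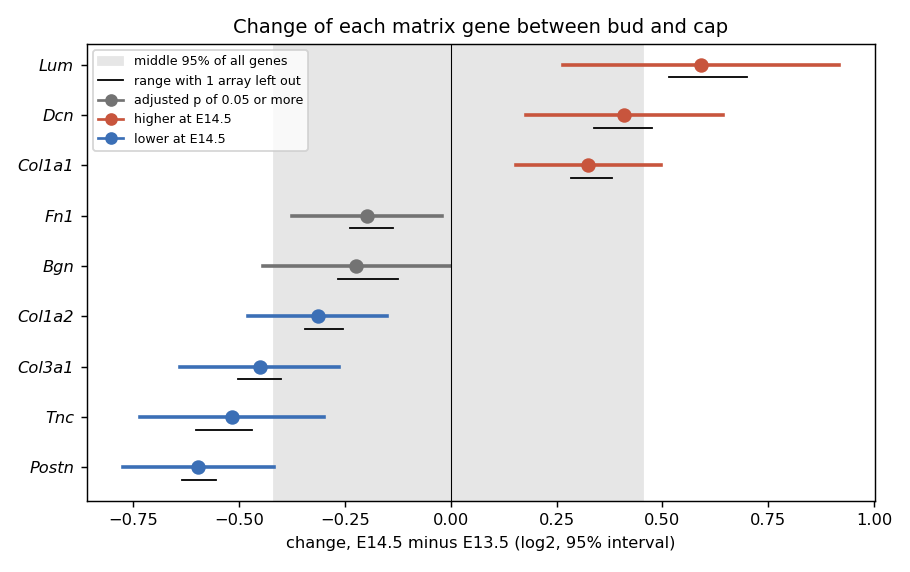
Change of each of the 9 matrix genes between stages (log2 signal, E14.5 minus E13.5), with points for the estimate and bars for its 95% interval, and a band for the middle 95% of all 27528 genes (−0.42 to 0.45). Postn, Tnc, Col3a1 and Lum lie outside that band, Dcn lies inside it, and the intervals of Bgn and Fn1 end close to 0.

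Within an array, differences between genes of related role were compared directly, since array-wide shifts cancel in them. The 6 pairs were tested by exact permutation of the stage labels (two-sided, smallest possible p 0.00794), with Benjamini-Hochberg adjustment over the 6 pairs. The members and pairs were known to move before these tests were made, so the tests are not independent of the changes above. Col1a1 minus Col1a2 and Col1a1 minus Col3a1 set a gene called higher against a gene called lower. A low p was therefore largely set beforehand for those pairs and adds no support to the changes. Dcn minus Bgn and Fn1 minus Tnc each set a called gene against one not called, so their p-values add no separate support either. The size of the divergence is given by the shifts, not by the p-values.

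Signal of Col1a1 relative to Col1a2 was higher on every E14.5 array than on any E13.5 array. Col1a1 minus Col1a2 was −0.18 ± 0.21 at E13.5 (range −0.49 to −0.01) and 0.46 ± 0.11 at E14.5 (range 0.29 to 0.58), a shift of 0.64 with no overlap (exact permutation p = 0.00794, adjusted 0.0159). Col1a1 minus Col3a1 moved from −0.21 ± 0.20 to 0.56 ± 0.09 (SD, n = 5), a shift of 0.78 (exact permutation p = 0.00794, adjusted 0.0159). Dcn minus Bgn went from 0.33 ± 0.31 to 0.96 ± 0.17 (SD, n = 5), a shift of 0.63 (exact permutation p = 0.00794, adjusted 0.0159). Both of these differences were also free of overlap between the stages.

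Fn1 minus Tnc rose from −0.09 ± 0.19 to 0.22 ± 0.04 (SD, n = 5), a shift of 0.32 (exact permutation p = 0.0159, adjusted 0.0238), with the ends of the stages just overlapping at 0.19. Dcn minus Lum changed by −0.18 (exact permutation p = 0.214, adjusted 0.257) and Postn minus Tnc by −0.08 (exact permutation p = 0.421, adjusted 0.421), and neither passed the test. For 4 of the pairs the call held whichever array was left out, with shifts of 0.56 to 0.68 for Col1a1 minus Col1a2 and 0.73 to 0.84 for Col1a1 minus Col3a1. Without E13.5 replicate 1, on which Bgn stood apart, the shift of Dcn minus Bgn was 0.53.

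**Figure D3:**
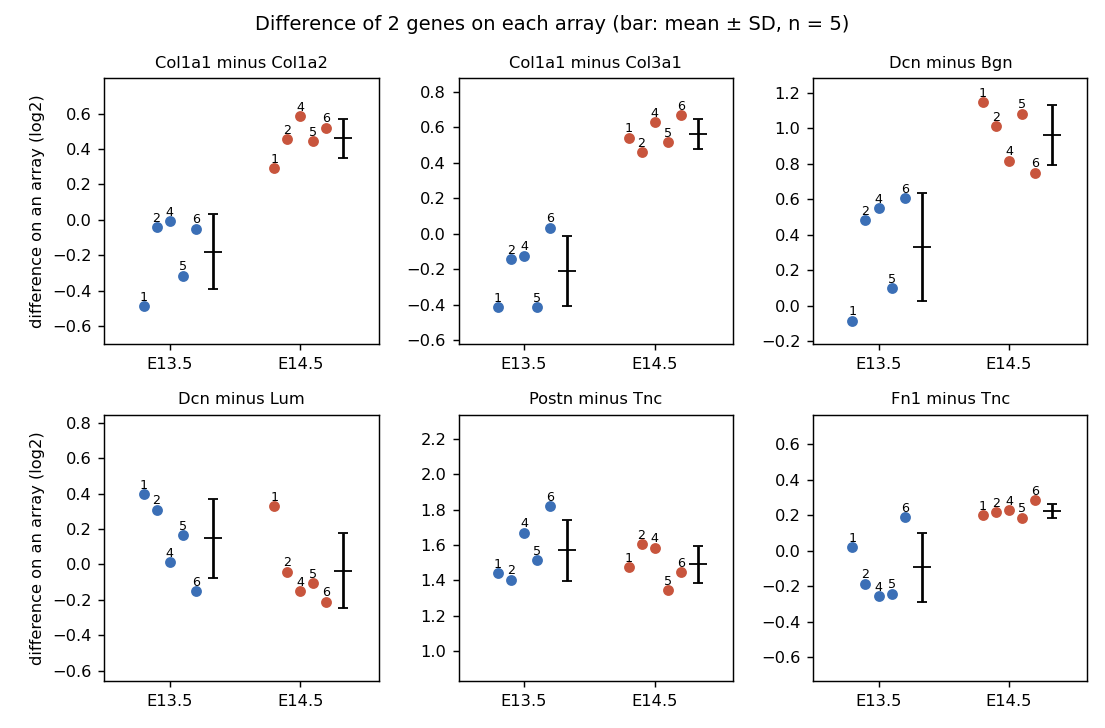
Within-array log2 differences for the 6 pairs of matrix genes, 1 panel per pair, with E13.5 and E14.5 on the horizontal axis, points for the 5 arrays of a stage and bars for the mean and SD. Col1a1 minus Col1a2, Col1a1 minus Col3a1 and Dcn minus Bgn are higher on every E14.5 array than on any E13.5 array, whereas Dcn minus Lum and Postn minus Tnc overlap.

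The profiles over the 10 arrays, each centred on the gene's own mean, placed Col1a2 closer to Fn1, Bgn, Col3a1, Tnc and Postn than to its partner chain Col1a1, with Dcn and Lum farther still. The root mean square distance between profiles was 0.09 on the log2 scale for Col1a2 and Fn1, 0.10 for Col1a2 and Bgn and 0.11 for Col1a2 and Col3a1, against 0.35 for Col1a2 and Col1a1, 0.42 for Col1a2 and Dcn and 0.54 for Col1a2 and Lum. Postn and Tnc were 0.13 apart. Col1a1 was nearest to Dcn among the 9 genes (0.20) and Dcn and Lum were 0.21 apart, while Lum and Tnc were the farthest of the 36 pairs (0.66). These distances include the stage difference itself, all points share the 10 arrays, and no test is attached to them.

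E13.5 replicate 1 carried the highest Col1a2, Col3a1, Bgn and Fn1 signal of all arrays. Replicate 1 also had the highest median of the dental mesenchyme genes described below (8.42, against 8.0 to 8.17 on the other E13.5 arrays) and the lowest median of the dental epithelium genes (7.23, against 7.60 to 7.76). Whether the make-up of that pool accounts for its collagen signal was not tested. Without that array the change was −0.26 for Col1a2 and −0.42 for Col3a1, which both stayed called, and −0.13 for Bgn and −0.14 for Fn1, which were not called.

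**Figure D4:**
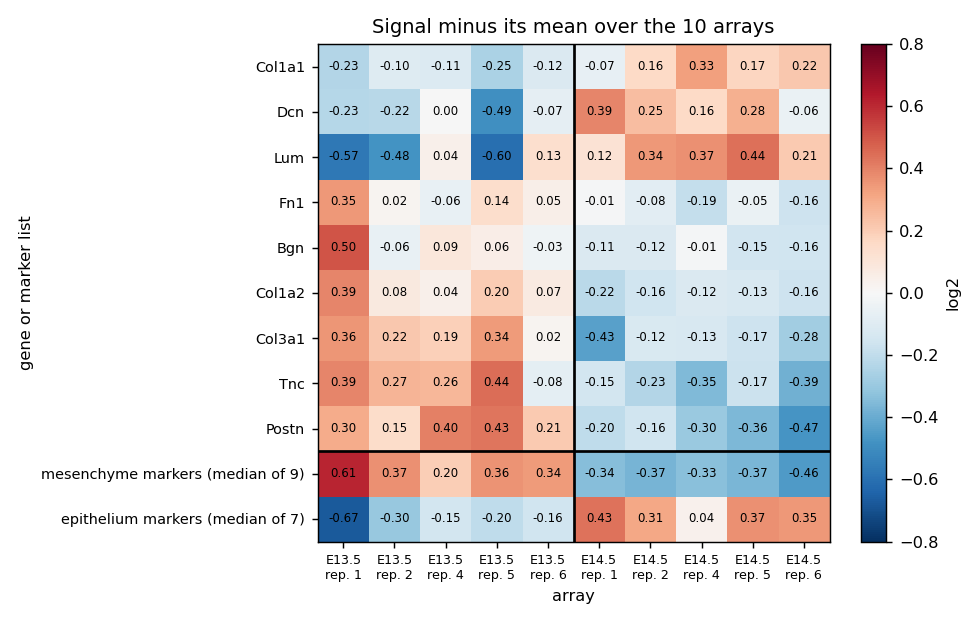
Profiles of the 9 matrix genes over the 10 arrays, as log2 signal minus the gene's mean over all arrays, with arrays in columns, genes in rows and the value written in each cell, and below them the medians of the dental mesenchyme and epithelium genes on the same scale. Col1a1, Dcn and Lum are on average negative at E13.5 and positive at E14.5, the other 6 genes run the other way, and Lum is already positive on E13.5 replicates 4 and 6.

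Among 391 other genes that the sources name, a few had profiles close to those of the matrix genes. Inhbb, the activin beta B subunit (distance 0.08, change 0.38, limma adjusted p = 0.00998), and Dlx4, a homeobox gene (0.08, change 0.31), were nearest to Col1a1. Fgfr2, the epithelial receptor for mesenchymal FGFs, was nearest to Dcn (0.13, change 0.55) and Perp, a desmosomal protein of stratified epithelia, was nearest to Lum (0.19, change 0.67). Tgfbr3 was nearest to Col1a2 (0.08, change −0.23) and Pkd2 to Col3a1 (0.13, change −0.37). On the falling side, Postn ran closest to Dlx1 (0.11, change −0.59) and to Bmp4, the odontogenic mesenchymal signal (0.12, change −0.56), and Tnc ran closest to Gab1 (0.12, change −0.60). The compared genes come from the study's own tables and lists of tooth genes, so their kind reflects that choice.

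The other matrix genes that could be named showed changes in both directions. Of 7 other structural matrix genes, Lama3, the epithelial laminin chain, rose by 0.69 (5.73 ± 0.10 to 6.42 ± 0.05, SD, n = 5; limma adjusted p = 6e-05), while Lama2 fell by 1.02 and Lama4, both chains of mesenchymal and vascular basement membranes, fell by 0.77. Col4a1, Fbln1, Fbln2 and Spock1 were not called. Of 7 other proteoglycans, 2 rose, Cspg4 by 0.62 and the syndecan Sdc4 by 0.57. The 5 genes of mineralized matrix held 2 that rose, Spp1 (osteopontin) by 1.89 (4.07 ± 0.10 to 5.96 ± 0.41, SD, n = 5) and the phosphatase Alpl by 0.74, whereas Bglap, Dmp1 and Dspp were not called. Dmp1 (mean percentiles 31.8 at E13.5 and 36.3 at E14.5) and Dspp (28.7 and 27.9) ranked low on the arrays.

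Among matrix-degrading enzymes and their inhibitors, 1 of 7 rose, the gelatinase Mmp9, by 1.18 (5.77 ± 0.23 to 6.95 ± 0.09, SD, n = 5; limma adjusted p = 3.56e-05). The collagen-cleaving enzymes Mmp13 and Mmp14 and the inhibitors Timp1 and Timp2 were not called. Mmp13 ranked low on the arrays (mean percentiles 15.7 at E13.5 and 21.0 at E14.5), unlike Mmp14 (88.4 and 89.4). Of 3 matrix receptors, Itgb5 rose by 0.26 and Ptprz1, a phosphatase that binds tenascin, fell by 1.16 (7.02 ± 0.16 to 5.86 ± 0.08, SD, n = 5). The call of Itgb5 was lost without E13.5 replicate 1, 4, 5 or 6, without E14.5 replicate 1, 2 or 6 and with median centring, with changes of 0.24 to 0.32 over all alternatives. Of the 4 enamel matrix genes Ambn fell by 0.68, and Amelx, Amtn and Enam were not called.

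Transforming growth factor beta is a known inducer of collagen and fibronectin synthesis. Of 9 ligands, receptors and Smads of that pathway, the ligands Tgfb1 (by 1.02, limma adjusted p = 1.1e-05) and Tgfb2 (by 0.43) rose, and the receptors Tgfbr1 (by 0.41) and Tgfbr3 (by 0.23) fell. The call of Tgfbr3 (limma adjusted p = 0.0445) was lost whichever array was left out, with changes of −0.25 to −0.20 over all alternatives and adjusted p up to 0.113, and also with quantile normalization, median centring and the replicate block. Tgfb3, Tgfbr2, Smad2, Smad3 and Smad4 were not called, and the matrix genes split in the same contrast as given above.

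**Figure D5:**
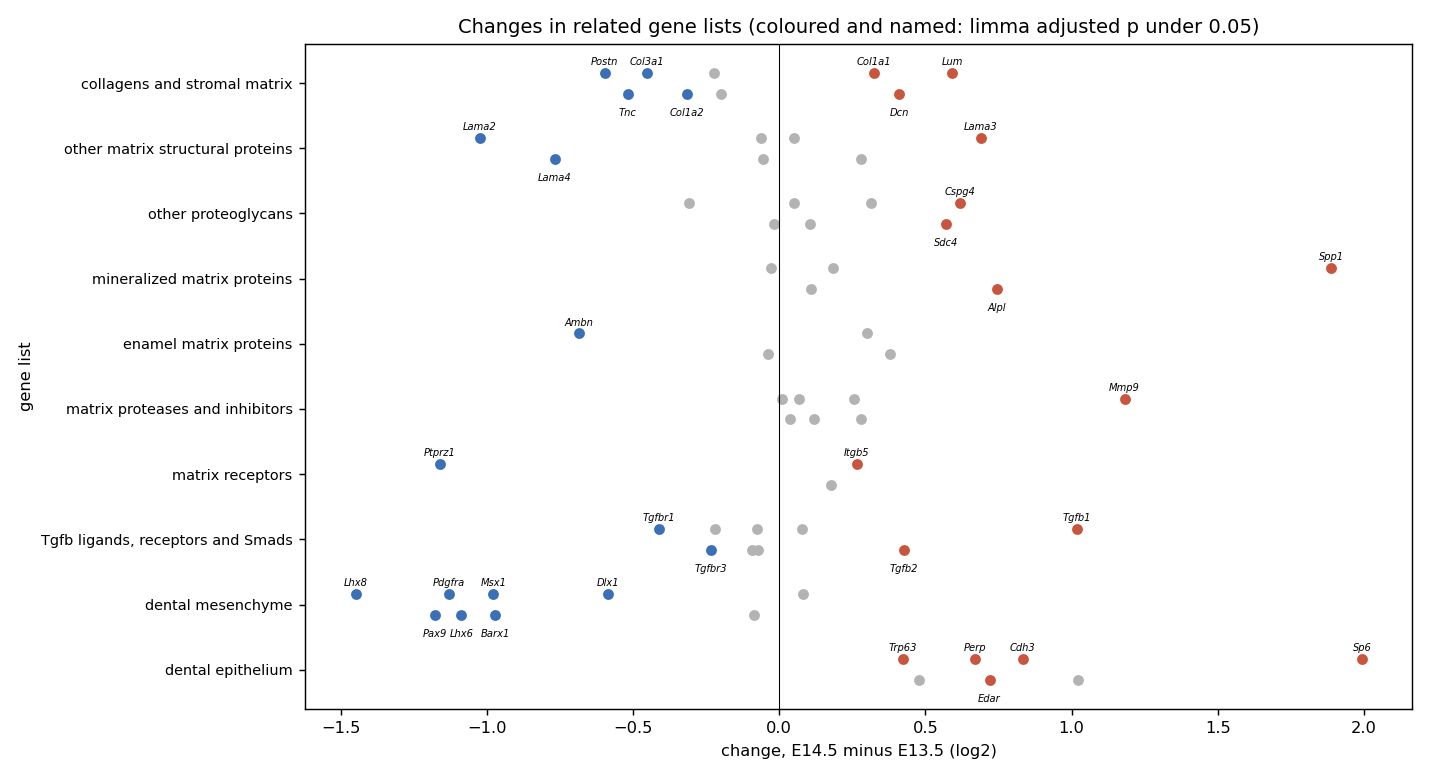
Changes between stages (log2 signal, E14.5 minus E13.5, horizontal axis) of the 9 matrix genes and of related gene lists (vertical axis), 1 point per gene, coloured red where higher, blue where lower and grey where the limma adjusted p was 0.05 or above. Dental mesenchyme genes lie mostly on the lower side and dental epithelium genes on the higher side, and the 9 matrix genes lie on both.

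The labelled tissue carried its defining genes at both stages, and their levels moved. Of 9 dental mesenchyme genes, 7 fell and 0 rose, among them Msx1 by 0.98, Pax9 by 1.18 and the fibroblast receptor Pdgfra by 1.13, whereas Dlx2 (0.08) and Runx2 (−0.09) were not called. The median of the list went from 8.18 ± 0.15 (range 8.0 to 8.42) to 7.43 ± 0.05 (range 7.35 to 7.47) (SD, n = 5). Of 7 dental epithelium genes, 5 rose and 0 fell, among them Trp63 by 0.42, Perp by 0.67 and Cdh3 by 0.83, and the list's median went from 7.61 ± 0.22 (range 7.23 to 7.76) to 8.20 ± 0.15 (range 7.94 to 8.34).

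Col1a2, Col3a1, Postn and Tnc thus fell alongside most of the mesenchyme genes, and Col1a1, Dcn and Lum rose while those genes fell. The part of tissue make-up in these changes was not tested. Measured against the median of the mesenchyme genes on the same array, all 9 matrix genes were relatively higher at E14.5, by 1.34 for Lum, 1.16 for Dcn, 1.07 for Col1a1, 0.55 for Fn1, 0.52 for Bgn, 0.43 for Col1a2, 0.30 for Col3a1, 0.23 for Tnc and 0.15 for Postn. The stages overlapped on that scale for Col3a1, Postn and Tnc. These differences include the fall of that median, which dropped by 0.75, and are given without a test.

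Other tissues that a germ dissection can carry were checked through the genes that could be named. Of 4 bone cell genes, Spp1 and Alpl rose, and the median of the 4 went from 4.82 (range 4.48 to 5.00) to 5.69 (range 5.44 to 5.87), while Bglap, a defining osteoblast gene (5.31 ± 0.27 and 5.42 ± 0.22, SD, n = 5), and Dmp1 were not called. The part of bone cells in the higher Col1a1 was not tested. The 2 endothelial genes were not called, with medians of 5.78 and 5.66. Of the 2 perivascular genes Cspg4 rose and Notch3 was not called, and the 2 genes of nerve and glia had medians of 4.83 and 4.8 with none called.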

How the data were processed

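RNA of pooled molar germs was hybridised to whole-transcript exon arrays, and the authors summarised probes per Ensembl gene through a custom chip definition. The deposited values were read as log2 signal, since their range fits it. The log base, background correction and summary model are not given in the sources used here. They were used as deposited, without further filter. Stages were compared with limma 3.58.1 (R 4.3.3; lmFit and eBayes on 10 arrays, 5 per stage, Benjamini-Hochberg over 27528 genes). Tested on simulated data, 92% of 200 genes changed by 1 on the log2 scale were recovered, with 6 false calls. The matrix genes all changed by less than 1, and recovery at their sizes was not tested. Array medians ran from 5.06 to 5.22 and correlations within a stage from 0.975 to 0.994. The number of arrays limits the precision.

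Symbols of 395 genes came from the study's tables, and those of 5 members from the identifiers that define them. The 9 genes, the lists and the pairs were chosen with earlier results of these data known. Named genes are all 9 members, the called genes of each list and the nearest profiles. The alternatives were quantile normalization, median centring, array weights, a filter on means under 4, a replicate block, array spread as a covariate, robust eBayes, percentile ranks and leaving out each array. Exact tests enumerated every split or sign flip of the arrays in Python 3.11.15. A gene of the epithelium list is not reported here.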

Additional observations from a re-analysis of the deposited data

Results flagged for a closer look

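Bgn on E13.5 replicate 1 measured 8.18, apart from the other E13.5 arrays at 7.62 to 7.77 (log2 signal). The gap to the nearest array was 0.727 of the range of the 5 arrays, above Dixon's 95% critical value for a set of 5. Of 30 sets of 5 arrays examined (9 genes and 6 pairs at each stage), 1 held an array apart in this way, and chance alone gives about 1.5.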

How the results depend on the processing

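No change of the 9 matrix genes and no shift of the 6 pairs turned direction under any setting. Col3a1, Postn and Tnc stayed called under all 17 limma alternatives, and Bgn and Fn1 were called under none. Quantile normalization gave −0.28 for Col1a2 (limma adjusted p = 0.0676), and called 3 enamel matrix genes and 2 proteases or inhibitors. Median centring called 1 matrix receptor, without Itgb5. Array weights called 3911 genes in all, 2 enamel genes and 2 proteases or inhibitors. With array spread as a covariate 2 enamel genes were called. Leaving out 1 array at a time gave 0.28 to 0.38 for Col1a1, −0.34 to −0.26 for Col1a2, 0.34 to 0.47 for Dcn and 0.51 to 0.70 for Lum, 3 to 7 called matrix genes, and 1 to 2 called enamel genes, proteases or inhibitors, and receptors. The cause of these differences was not tested, except that fewer arrays were fitted. Over the 17 alternatives the limma adjusted p ran from 0.00501 to 0.0703 for Col1a2 and from 0.0156 to 0.0933 for Dcn. The stages share replicate numbers, but same-numbered arrays did not deviate together in every case, so the numbers were not taken as pairs. Correlations of same-numbered arrays were 0.39, 0.51 and 0.28 for replicates 1, 4 and 6. They were −0.08 and 0.03 for replicates 2 and 5, and 5 of 10 arrays were closest to their own number. Such values cannot exclude a pairing, so a replicate block was also fitted. The replicate block called 2077 genes in all and 5 of the 9, with −0.31 for Col1a2 (limma adjusted p = 0.0561), 0.41 for Dcn (limma adjusted p = 0.0832) and 2 enamel genes. With that block the shifts were 0.64 for Col1a1 minus Col1a2, 0.78 for Col1a1 minus Col3a1, 0.63 for Dcn minus Bgn and 0.32 for Fn1 minus Tnc. Each had an adjusted p of 0.075 by an exact sign-flip test, which cannot go below 0.0625 unadjusted. Dcn minus Lum (−0.18) had the same sign-flip adjusted p of 0.075, and Postn minus Tnc had 0.5. The sign-flip test thus does not separate Dcn minus Lum from the pairs called by permutation. Signal over background could not be judged, since detection calls were not used here.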
